A study of Mus musculus with 29 samples.

Results

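Microglia, the resident macrophages of the brain, were compared between mice that had or had not met lipopolysaccharide (LPS) before their microglia were depleted and grew back. The comparison used the 5 libraries labelled LBL and the 5 labelled PBL, 10 of the 29 libraries in the series, chosen by these labels alone, and covered all 16632 genes with enough counts to test. LBL mice received 1 mg/kg LPS from Escherichia coli O111:B4 intraperitoneally at 10 weeks of age, BLZ945, and the same dose of LPS again. PBL mice received phosphate-buffered saline in place of the first LPS and were otherwise treated alike. BLZ945 inhibits CSF1R, the receptor for the growth factors that keep microglia alive. It was given by gavage at 169 mg/kg per day for 5 days, from 1 week after the first injection. The second injection followed the first by 5 weeks, and brains were taken 3 h after it, at 15 weeks. PBP (saline, BLZ945, saline; 5 libraries) gives the level in repopulated microglia without any LPS. LL (LPS, vehicle, LPS; 5 libraries) and PL (saline, vehicle, LPS; 4 libraries) give the same earlier LPS effect without depletion. All mice were male C57BL/6J, and all libraries are bulk polyA RNA from DAPI-negative cells with strong CD11b, moderate CD45 and absent Ly6C staining, 1 library per sample. The labels do not say whether each sample came from 1 animal, and the p-values therefore rest on the spread between libraries, which may be technical. How completely microglia were lost in these mice, and which sorted cells were newly formed, is not given in the sources used here.

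LPS is a component of the outer membrane of Gram-negative bacteria. CD14 passes it to the receptor TLR4 and its partner MD-2. The adaptor MyD88 then leads to NF-kB and MAP kinases, which switch on genes of cytokines, chemokines and of the pathway's own inhibitors. The adaptor TRIF leads to IRF3 and interferon beta, which acts back on the cells through the interferon receptor and switches on interferon-stimulated genes. Macrophages that have met LPS once can answer a later dose with less cytokine expression, known as endotoxin tolerance, and microglia are known to keep altered responses for weeks after peripheral LPS.

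The libraries held 6111284 to 9612363 counts in LBL and 5670450 to 7287523 in PBL, and levels are given as CPM, the counts set against the scaled library size. LBL_1 to LBL_4 were sorted on day 1 and LBL_5 on day 2, whereas all PBL libraries were sorted on day 3, all on the same MoFlo XDP instrument. No day held both groups, so day and earlier LPS cannot be told apart by any fit. The RNA quality number, a score on which higher is better, was 7.6 to 8.9 in LBL and 7.4 to 7.9 in PBL. RNA concentration was 1.41 to 1.78 ng/µl in LBL and 1.09 to 1.33 ng/µl in PBL, without overlap. The microglial label held in every library: the defining genes Tmem119 (3629 to 5162 CPM in LBL, 3707 to 4939 CPM in PBL), Siglech (926 to 1036 and 914 to 1110.0 CPM) and Fcrls (2497 to 2961 and 2066 to 3374 CPM) were high throughout. Of the 7 marker genes tested, 0 were called by edgeR, DESeq2 or limma voom, with 1 higher at an unadjusted p under 0.05. Neutrophil genes set PBL apart. The summed level of the 7 neutrophil markers that could be tested was 125 to 476 CPM in PBL, 0.68 to 4.73 CPM in LBL and 0 to 6.52 CPM in PBP. Their part in the results below was not tested, and their values are given with the genes that fell furthest.

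Regrown microglia of mice with earlier LPS had lower levels of many inflammatory genes 3 h after the second dose. Most tested genes of cytokines (12 of 18), chemokines (13 of 18) and the NF-kB family (10 of 11) were lower in LBL than in PBL, often several-fold. Of 17 transcription factor genes of microglial identity, 4 were higher, or 1 without LBL_4. By edgeR's quasi-likelihood test, 665 genes were lower in LBL (4.0% of all tested) and 456 were higher (2.74%) at an adjusted p under 0.05, 6.74% in all. The falls were larger than the rises: 282 genes (1.7%) fell and 71 (0.427%) rose by at least 2-fold, 58 fell by at least 8-fold, and 7 rose by at least 4-fold. The median log2 fold change was -0.85 among the genes that fell, 0.63 among those that rose and 0.01 over all genes tested. All 5 LBL libraries lay below all 5 PBL libraries in 739 genes (4.44%) and above them in 443 (2.66%), and 499 and 253 of these, respectively, were also called. At the threshold, Pno1 (0.54) and D730005E14Rik (-0.49) were the last genes called, and Gm5763 (1.48) and Tctn1 (-0.47) the first that were not. The balance of falls and rises depended on scaling: with library totals alone, 520 genes were lower and 967 higher, so that 35.0% of the called genes were lower in place of 59.3%. All 520 were among the 665, and all 456 rises were called there too. Single libraries also moved the counts. Without LBL_2, 416 genes were lower and 253 higher, without PBL_4, 232 were higher, and without LBL_4, 257 were higher. With the RNA quality number in the fit, 442 were lower and 196 higher, 409 and 169 of them shared with the counts above. With LBL_5 as the only LBL library, assumed to vary like the other groups, 11 and 4 were called.

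**Figure D1:**
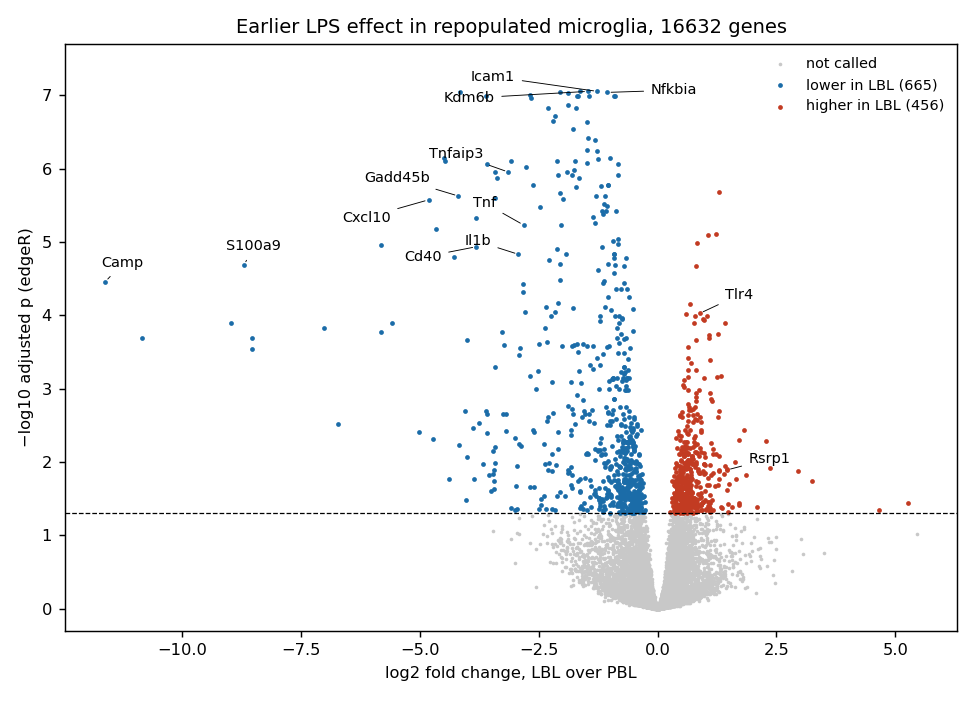
Each point is 1 of 16632 genes, with the log2 fold change of LBL over PBL on the x axis and the negative log10 of the edgeR adjusted p on the y axis; the dashed line marks 0.05. Falls (665 genes) reach further from 0 than rises (456 genes), and the leftmost points, such as Camp, are genes at 0 counts in every LBL library whose fitted fold is no measured size.

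The promoters of 4 genes from a panel of LPS, interferon and microglial genes are shown, those that fell with the smallest adjusted p and have a promoter entry. Sequence elements that the pathway's transcription factors are known for are marked in them. Kdm6b, which by its adjusted p would have been among the 4, and Ccl5, whose adjusted p was smaller than that of Ifit1, have no entry. Each runs from 250 bases before to 50 after the gene's start, 5′ to 3′ on the gene's strand, from RefSeq on GRCm38.p6, which is another build than that of the counts. Nfkbia (chr12:55492598-55492897, minus strand) encodes the inhibitor that holds NF-kB in the cytoplasm. Tnfaip3 (chr10:19015361-19015660, minus strand, the first of 2 starts listed) encodes A20, a ubiquitin-editing enzyme that ends NF-kB signalling. Isg15 (chr4:156200769-156201068, minus strand) encodes a ubiquitin-like protein, and Ifit1 (chr19:34640639-34640938, plus strand) an antiviral RNA-binding protein, both induced by interferon. Capitals mark matches to the kappaB consensus bound by NF-kB, to the core of the interferon-stimulated response element (ISRE; GAAA, any pair of bases, GAAA) and to the AP-1 site TGANTCA, searched on both strands.
Nfkbia: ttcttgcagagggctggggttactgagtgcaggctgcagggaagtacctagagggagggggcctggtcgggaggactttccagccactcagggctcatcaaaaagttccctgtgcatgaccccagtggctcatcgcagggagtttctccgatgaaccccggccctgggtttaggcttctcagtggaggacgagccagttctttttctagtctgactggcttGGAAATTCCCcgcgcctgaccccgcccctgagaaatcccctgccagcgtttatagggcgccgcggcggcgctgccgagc
Tnfaip3: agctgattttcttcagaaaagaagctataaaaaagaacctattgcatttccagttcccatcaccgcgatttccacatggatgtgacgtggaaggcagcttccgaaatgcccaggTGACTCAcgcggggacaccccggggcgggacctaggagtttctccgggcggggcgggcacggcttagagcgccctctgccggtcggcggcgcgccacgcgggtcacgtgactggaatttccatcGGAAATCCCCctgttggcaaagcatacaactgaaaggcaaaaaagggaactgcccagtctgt
Isg15: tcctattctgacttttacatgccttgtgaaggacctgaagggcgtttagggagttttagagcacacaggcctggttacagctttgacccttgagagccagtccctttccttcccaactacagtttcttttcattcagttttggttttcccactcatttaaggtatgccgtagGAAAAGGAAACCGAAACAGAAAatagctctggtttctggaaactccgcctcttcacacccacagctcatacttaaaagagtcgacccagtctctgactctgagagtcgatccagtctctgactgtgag
Ifit1: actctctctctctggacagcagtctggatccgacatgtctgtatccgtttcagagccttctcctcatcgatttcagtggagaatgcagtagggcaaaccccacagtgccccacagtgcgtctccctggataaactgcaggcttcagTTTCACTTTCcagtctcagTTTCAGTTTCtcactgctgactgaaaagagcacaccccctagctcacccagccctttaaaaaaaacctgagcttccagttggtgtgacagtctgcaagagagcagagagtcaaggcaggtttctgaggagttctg
The capitals mark 1 kappaB match in Nfkbia at 29 to 20 bases before the start, a kappaB match and an AP-1 match in Tnfaip3, 3 overlapping ISRE matches in Isg15 and 2 separate ISRE matches in Ifit1. Of all 32851 promoters in the table, 5.8% held a kappaB match, 3.4% an ISRE core, 7.8% an AP-1 site and 28.3% GAGGAA, the core bound by PU.1. Taken per gene, a promoter was found for 10615 of the genes tested, and 8.4% of them held a kappaB match. That share was 16% among 456 genes lower in LBL and 6.3% among 348 genes higher in LBL. The ISRE core was found in 3.9% of the genes tested, 10.7% of the lower genes and 2.9% of the higher genes. AP-1 sites were found in 6.2%, 10.1% and 4.9%, and GAGGAA in 30.9%, 36.8% and 33.0%. Of the NF-kB family genes that fell, 5 of the 7 with a promoter held a kappaB match, and of the interferon-stimulated genes that fell, 9 of the 14 with a promoter held an ISRE core. These are letter matches and were not tested for binding or enrichment.

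Most of the cytokine genes that could be tested fell. Of 18 cytokine and growth factor genes tested (26 were listed and 8 had too few counts), 12 were lower in LBL and 0 higher, with a median log2 fold change of -1.15, against 4.0% lower and a median of 0.01 over all genes. Il1b, the gene of the pyrogenic cytokine interleukin 1 beta (ENSMUSG00000027398, chromosome 2), was at 390.3, 237, 271, 332 and 262 CPM in PBL_1 to PBL_5 and at 25.9, 31.1, 63.6, 36.2 and 39.8 CPM in LBL_1 to LBL_5. Every LBL library lay far below every PBL library, and the LBL mean was 13.2% of that in PBL (log2 fold change -2.93, SE 0.39, edgeR adjusted p = 1.47e-05). Tnf, which encodes tumour necrosis factor (ENSMUSG00000024401, chromosome 17), was at 169, 110.1, 175, 174 and 161 CPM in PBL and 28.6, 13.7, 21.7, 24.9 and 23.3 CPM in LBL. The groups did not overlap, although PBL_2 was lower than the other PBL libraries (log2 fold change -2.82, SE 0.35, edgeR adjusted p = 5.85e-06). Without LPS, PBP held only 2.29 ± 1.31 CPM of Il1b and 2.82 ± 2.46 CPM of Tnf (SD, n = 5), so LBL lay between the unstimulated level and that of PBL.

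Il6, the gene of interleukin 6, changed less. It was at 67.2, 60.0, 63.9, 54.2 and 52.0 CPM in PBL and 32.5, 24.8, 33.7, 32.5 and 30.8 CPM in LBL, with no overlap (log2 fold change -0.95, SE 0.14, edgeR adjusted p = 9.83e-06), over 18.5 to 25.5 CPM in PBP. Tnfsf9, which encodes the costimulatory ligand 4-1BBL, was at 81.5 to 276 CPM in PBL and 13.6 to 29.5 CPM in LBL (log2 fold change -3.42, SE 0.40, edgeR adjusted p = 2.48e-06). Among the other members that fell were Il12b (-3.58, SE 0.67), which encodes the p40 subunit of interleukins 12 and 23, Il1rn (-2.78, SE 0.42), the gene of the interleukin 1 receptor antagonist, Il1a (-1.25, SE 0.18) and Tgfb1 (-1.56, SE 0.27). Il12b varied widely between the LBL libraries, from 0.778 to 34.4 CPM, all below the PBL libraries at 71.6 to 194 CPM. Csf1, which encodes a CSF1R ligand, was at 17.5 ± 5.60 CPM in LBL and 25.9 ± 3.98 CPM in PBL and was not called (log2 fold change -0.56, SE 0.26, edgeR adjusted p = 0.217).

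Most of the tested chemokine genes fell as well. Of 18 tested (21 were listed), 13 were lower (72.2%, against 4.0% of all genes) and 0 higher, with a median log2 fold change of -1.97. Cxcl10, an interferon-induced attractant of T cells (ENSMUSG00000034855, chromosome 5), was at 690.4, 537, 847, 814 and 599 CPM in PBL and 17.5, 10.1, 48.7, 16.2 and 32.8 CPM in LBL. The highest LBL library was an order of magnitude below the lowest PBL library, and the LBL mean was 3.59% of the PBL mean (log2 fold change -4.82, SE 0.56, edgeR adjusted p = 2.66e-06). Ccl5, the gene of the attractant RANTES (ENSMUSG00000035042, chromosome 11), was at 250.5, 147, 225, 276 and 160.1 CPM in PBL and 15.9, 7.78, 32.9, 26.4 and 20.2 CPM in LBL. It also did not overlap between the groups, with LBL_2 lowest (log2 fold change -3.37, SE 0.38, edgeR adjusted p = 1.34e-06). Ccl3, which encodes the monocyte attractant MIP-1 alpha, was at 235, 174, 252, 268 and 169.9 CPM in PBL and 49.1, 35.5, 67.5, 52.0 and 52.1 CPM in LBL, again apart (log2 fold change -2.10, SE 0.31, edgeR adjusted p = 6.86e-05).

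The neutrophil attractants were near the detection limit in LBL. Cxcl2 was at 4.30, 7.82, 7.48, 11.8 and 10.4 CPM in PBL and 0.158, 0, 0.310, 0 and 0.289 CPM in LBL (log2 fold change -5.81, SE 0.81, edgeR adjusted p = 1.1e-05). Cxcl1 was at 1.24 to 2.79 CPM in PBL and 0 to 0.631 CPM in LBL (log2 fold change -3.41, SE 0.80, edgeR adjusted p = 0.00631). Cxcl11, like Cxcl10 a ligand of CXCR3, was at 4.62 to 8.22 CPM in PBL, and only LBL_3 held any counts of it, at 0.621 CPM (log2 fold change -5.59, SE 0.92, edgeR adjusted p = 0.000128). The monocyte attractant genes Ccl2 and Ccl12 had smaller fold changes. Ccl2 was at 356, 262, 243, 184 and 149.5 CPM in PBL and 95.9, 106, 173, 154 and 159 CPM in LBL. The groups overlapped, since PBL_5 lay below 3 of the LBL libraries, and Ccl2 was not called (log2 fold change -0.80, SE 0.38, edgeR adjusted p = 0.244), although it was at an adjusted p of 0.0237 in edgeR with the LBL and PBL libraries alone in the fit. Ccl12 fell in the main test by 0.74 on the log2 scale (SE 0.22, edgeR adjusted p = 0.0418), and its libraries overlapped (1588 to 2845 CPM in LBL, 2544 to 5471 CPM in PBL). No cytokine or chemokine gene was higher even at an unadjusted p under 0.05, nor did DESeq2 or limma voom call any higher (0 by each). The numbers of cytokine and chemokine genes that fell changed little when any 1 LBL or PBL library was left out, to 11 to 13 and 12 to 13. Neutrophils are also known to express Il1b and Cxcl2, and the summed level of their markers was 125 to 476 CPM in PBL against 0.68 to 4.73 CPM in LBL.

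**Figure D2:**
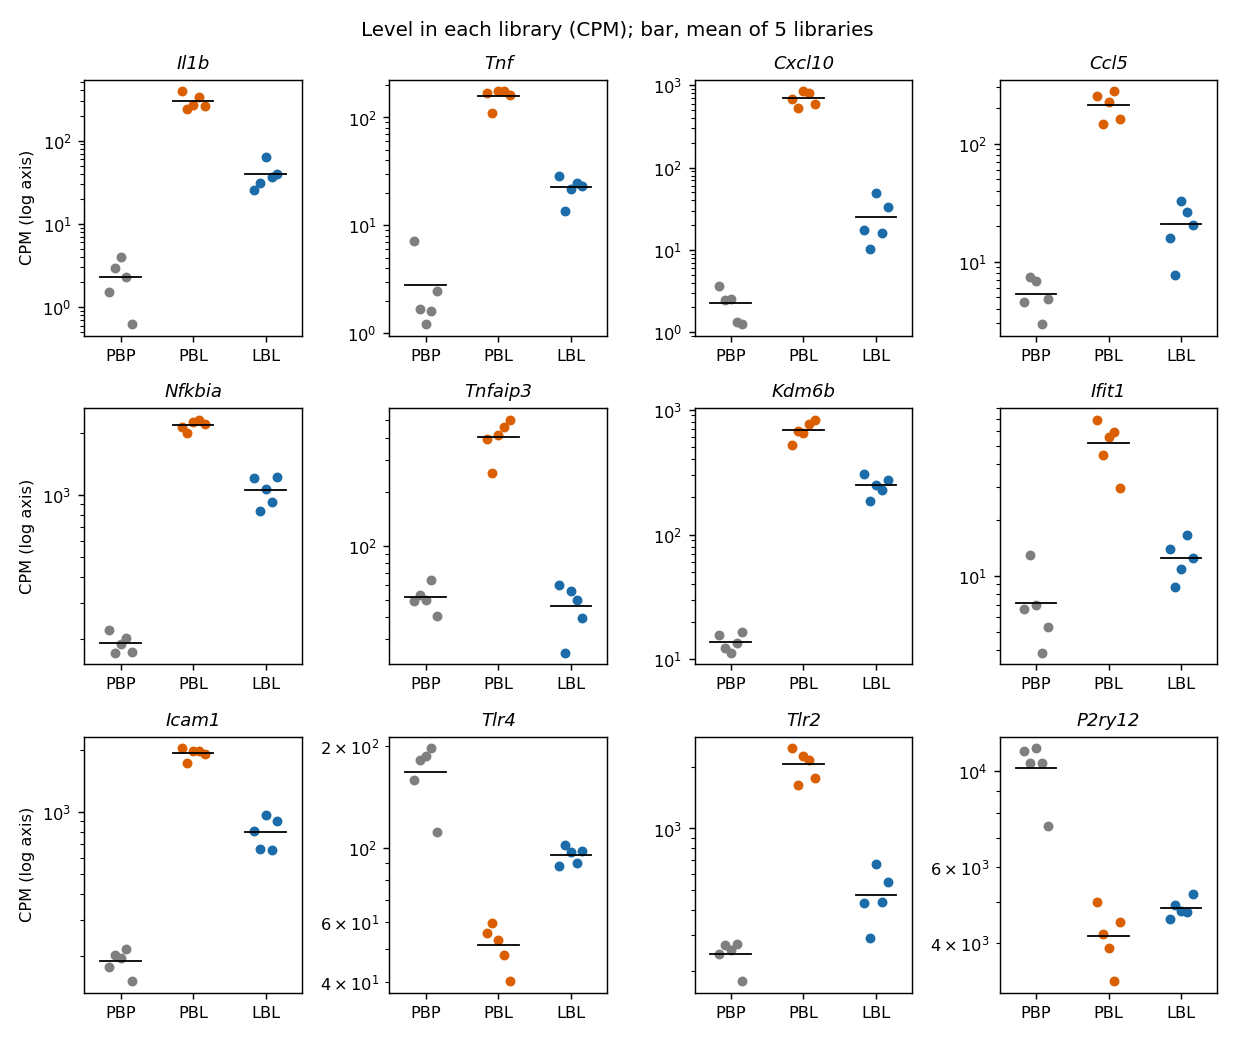
CPM of 12 genes in each library of PBP, PBL and LBL (5 points a group, log axes, the bar is the mean). Il1b, Tnf, Cxcl10, Ccl5, Nfkbia, Kdm6b and Icam1 lie between PBP and PBL in LBL, Tnfaip3 in LBL overlaps PBP, and Tlr4 is higher in LBL than in PBL.

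Among the genes of LPS sensing, the receptor rose while its co-receptor fell. Tlr4 (ENSMUSG00000039005, chromosome 4) was at 88.0, 102, 97.1, 90.2 and 97.5 CPM in LBL and 55.7, 59.7, 53.0, 48.0 and 40.2 CPM in PBL. All LBL libraries were higher (log2 fold change 0.89, SE 0.15, edgeR adjusted p = 9.36e-05), and both groups were below PBP, at 111 to 197 CPM. Cd14, which hands LPS to the receptor, was at 3232, 2722, 3605, 3174 and 3162 CPM in LBL and 6472, 4410.0, 5817, 5708 and 4511 CPM in PBL, with no overlap (log2 fold change -0.76, SE 0.12, edgeR adjusted p = 4.32e-05). The genes of the receptor's partner MD-2, Ly96 (0.38, SE 0.16, edgeR adjusted p = 0.149), and of the adaptor MyD88, Myd88 (-0.06, SE 0.13, edgeR adjusted p = 0.859), were not called. Myd88 was at 296 to 361 CPM in LBL and 265 to 408 CPM in PBL, both above the 70.2 to 141 CPM of PBP. Of 26 genes of the receptor complex and its signalling, 6 were lower (23.1%, against 4.0% of all genes). Only Tlr4 was higher (3.8%, against 2.74%), and the median was -0.18. Besides Cd14, those that fell were the kinase genes Map2k3 (-0.99, SE 0.12), Map3k8 (-0.61, SE 0.18) and Irak1 (-0.54, SE 0.17) and the adaptor genes Traf3 (-1.24, SE 0.36) and Traf6 (-0.71, SE 0.17). The count of 6 was 3 without any one of PBL_3, PBL_4, PBL_5, LBL_2 or LBL_3. Of 26 other pattern recognition genes, 6 were lower (23.1%, against 4.0%) and 1 higher (3.8%, against 2.74%), with a median of -0.29. Tlr2, the receptor gene for bacterial lipoproteins, was at 2471, 1636, 2267, 2161 and 1773 CPM in PBL and 429.7, 292, 667, 434 and 545 CPM in LBL, far apart (log2 fold change -2.12, SE 0.28, edgeR adjusted p = 1.26e-05). The inflammasome genes Casp4 (-1.30, SE 0.17), whose product senses LPS inside cells, and Nlrp3 (-0.69, SE 0.13) were lower, whereas Pycard, the gene of the inflammasome adaptor ASC, was higher (0.47, SE 0.10).

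NF-kB family genes were lower almost throughout. Of 11 subunit and inhibitor genes tested, 10 were lower (90.9%, against 4.0% of all genes) and 0 higher (median -1.11). The count stayed at 10 without any single LBL or PBL library. Nfkbia (ENSMUSG00000021025, chromosome 12), whose promoter is printed above, was at 2141, 2006, 2249, 2316 and 2222 CPM in PBL and 1212, 834, 1072, 929.7 and 1220.0 CPM in LBL. The libraries of PBL were close together, and all LBL libraries were clearly lower (log2 fold change -1.05, SE 0.11, edgeR adjusted p = 9.12e-08), yet well above the 171 to 222 CPM of PBP. Nfkbie, which encodes a further cytoplasmic inhibitor, fell more deeply, with 78.0 to 104 CPM in PBL and 10.9 to 28.5 CPM in LBL (log2 fold change -2.19, SE 0.24, edgeR adjusted p = 2.27e-07). It was also lower in LBL than in PBP, at 33.9 to 60.1 CPM (log2 fold change -1.08, SE 0.24, edgeR adjusted p = 0.00082). Of the subunits, Relb (-2.27, SE 0.33), Nfkb2 (-1.90, SE 0.24), Rel (-0.93, SE 0.14) and Nfkb1 (-0.84, SE 0.10) fell. Rela, the gene of the p65 subunit, was not called (log2 fold change -0.34, SE 0.13, edgeR adjusted p = 0.132), though each of its LBL libraries (97.2 to 116 CPM) lay below each PBL library (126 to 144 CPM). The nuclear co-regulator genes Nfkbiz (-1.78, SE 0.35) and Bcl3 (-0.81, SE 0.16) also fell. Bcl3 was still at 43.3 to 75.1 CPM in LBL, against 0.865 to 1.40 CPM in PBP.

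Genes of inhibitors that end the response were among those that fell. Of 28 negative feedback genes tested, 14 were lower, 2 higher and 12 not called (median -0.63). Tnfaip3 (ENSMUSG00000019850, chromosome 10) was at 396, 253, 416, 458 and 503 CPM in PBL and 60.4, 25.3, 55.7, 49.98 and 39.3 CPM in LBL. Its LBL libraries lay within or below the 40.5 to 64.3 CPM of PBP and far below all PBL libraries (log2 fold change -3.14, SE 0.35, edgeR adjusted p = 1.11e-06). Dusp1, the gene of a phosphatase that inactivates MAP kinases, was at 1169, 777, 831, 1389 and 1242 CPM in PBL and 263, 84.1, 152, 117 and 121 CPM in LBL, without overlap (log2 fold change -2.88, SE 0.63, edgeR adjusted p = 0.00598). Tnip1 (-1.71, SE 0.19), which encodes a partner of A20, and Zc3h12a (-1.71, SE 0.22), which encodes an RNase that degrades cytokine mRNA, fell as well. Socs3, which encodes a brake on cytokine receptor signalling, did not pass the test (log2 fold change -0.51, SE 0.17, edgeR adjusted p = 0.0656). Its LBL libraries spread from 614 to 1439 CPM and overlapped PBL at 1197 to 1699 CPM, and without LBL_1 its edgeR adjusted p was 0.0126. Irak3, the gene of an inhibitory kinase linked to endotoxin tolerance, was at 4.25 to 8.85 CPM in LBL and 6.80 to 12.8 CPM in PBL and was not called (log2 fold change -0.62, SE 0.27, edgeR adjusted p = 0.171). The members that rose were Tsc22d3 (log2 fold change 0.80, SE 0.20, edgeR adjusted p = 0.0106), which encodes the glucocorticoid-induced leucine zipper GILZ, and Otud1 (log2 fold change 1.81, SE 0.40, edgeR adjusted p = 0.00364), which encodes a deubiquitinase. Otud1 was low in both groups, at 2.52 to 4.94 CPM in LBL and 0 to 1.71 CPM in PBL, against 10.7 to 19.1 CPM in PBP. Tsc22d3 was at 695, 665, 570.5, 597 and 573 CPM in LBL and 324, 347, 434, 279 and 394 CPM in PBL, and its call ended with the RNA quality number in the fit (edgeR adjusted p = 0.0666). Leaving out PBL_1 raised the count of rises from 2 to 4.

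Interferon-stimulated genes were lower in about as many members as were not called. Of 42 tested, 20 were lower (47.6%, against 4.0% of all genes) and 0 higher, with a median log2 fold change of -0.76. Isg15 (ENSMUSG00000035692, chromosome 4) was at 38.9, 25.4, 42.5, 33.8 and 22.3 CPM in PBL and 10.9, 6.61, 10.7, 9.42 and 11.6 CPM in LBL. The groups were apart (log2 fold change -1.73, SE 0.21, edgeR adjusted p = 7.96e-07), and LBL reached little above the 6.35 to 9.63 CPM of PBP. Ifit1 (ENSMUSG00000034459, chromosome 19) was at 69.3, 44.9, 56.1, 59.4 and 29.6 CPM in PBL and 13.9, 8.75, 10.9, 16.5 and 12.4 CPM in LBL, again apart (log2 fold change -2.05, SE 0.27, edgeR adjusted p = 2.14e-06). Parp14, which encodes an ADP-ribosyltransferase, fell as well, with 72.5 to 92.8 CPM in PBL and 30.7 to 44.3 CPM in LBL (log2 fold change -1.28, SE 0.15, edgeR adjusted p = 5.7e-07). Among 14 interferon-inducible GTPase genes, which act against intracellular pathogens, 6 were lower (42.9%, against 4.0%) and 0 higher (median -0.58). Gbp5 was at 142, 142, 167, 182 and 158 CPM in PBL and 29.8, 19.2, 39.2, 36.4 and 35.3 CPM in LBL, a clear gap (log2 fold change -2.31, SE 0.25, edgeR adjusted p = 1.49e-07), and Gbp2 (-1.92, SE 0.27) and Iigp1 (-2.34, SE 0.38) fell similarly. Of the 23 IRF, STAT and JAK genes, 5 were lower (21.7%, against 4.0% of all genes) and 0 higher (median -0.17). The count of 5 was 3 without PBL_3, PBL_4, LBL_2 or LBL_3. Irf1, a transcription factor gene induced by both NF-kB and interferon, was at 241, 242, 273, 253 and 259 CPM in PBL and 131, 76.0, 86.9, 75.8 and 87.1 CPM in LBL (log2 fold change -1.48, SE 0.17, edgeR adjusted p = 2.31e-07). Irf7, a regulator of interferon alpha genes, was not called (log2 fold change -0.41, SE 0.30, edgeR adjusted p = 0.503), and its PBL libraries spread from 6.69 to 24.0 CPM around those of LBL at 7.49 to 15.4 CPM.

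Among genes for contact with T cells more than the background share fell. Of 17 costimulatory and checkpoint genes, 9 were lower (52.9%, against 4.0% of all genes) and 2 higher (11.8%, against 2.74%). The median was -0.80. Icam1, the gene of a ligand for the integrin LFA-1 (ENSMUSG00000037405, chromosome 9), was at 2034, 1732, 1978, 1984 and 1901 CPM in PBL and 809, 662, 967, 655 and 900.4 CPM in LBL, with tight groups far apart (log2 fold change -1.27, SE 0.13, edgeR adjusted p = 8.83e-08). Cd40, which encodes the receptor for T cell help, was at 63.6, 21.5, 46.6, 54.8 and 26.1 CPM in PBL and 4.26, 1.07, 2.48, 3.45 and 4.05 CPM in LBL, and no LBL library came near PBL (log2 fold change -3.82, SE 0.52, edgeR adjusted p = 1.16e-05). Cd69 (-3.58, SE 0.41), an early activation gene, and Cd83 (-2.03, SE 0.26), which stabilises MHC class II at the surface, fell as well. The 2 that rose, Lair1 (log2 fold change 0.26, SE 0.08, edgeR adjusted p = 0.0473) and Pilra (log2 fold change 0.50, SE 0.14, edgeR adjusted p = 0.0256), encode inhibitory receptors. Lair1 lost its call without any one of 9 of the 10 libraries, all but PBL_1, and Pilra without PBL_1, PBL_3, PBL_5, LBL_1 or LBL_4. Of 11 MHC class II genes, only Cd74, which encodes the invariant chain, was lower (9.1%, against 4.0% of all genes). It was at 142 to 218 CPM in LBL and 345 to 517 CPM in PBL (log2 fold change -1.06, SE 0.22, edgeR adjusted p = 0.00317). H2-Aa was not called (log2 fold change -0.48, SE 0.32, edgeR adjusted p = 0.452), and its groups overlapped. Of 19 MHC class I genes, 3 were lower (15.8%, against 4.0% of all genes) and 0 higher (median -0.10). They were H2-K1 (-0.62, SE 0.11), the peptide transporter gene Tap1 (-0.68, SE 0.15) and Nlrc5 (-1.11, SE 0.27), the gene of their transcriptional activator. Reads of H2-K1 can be shared with near-identical class I genes.

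**Figure D3:**
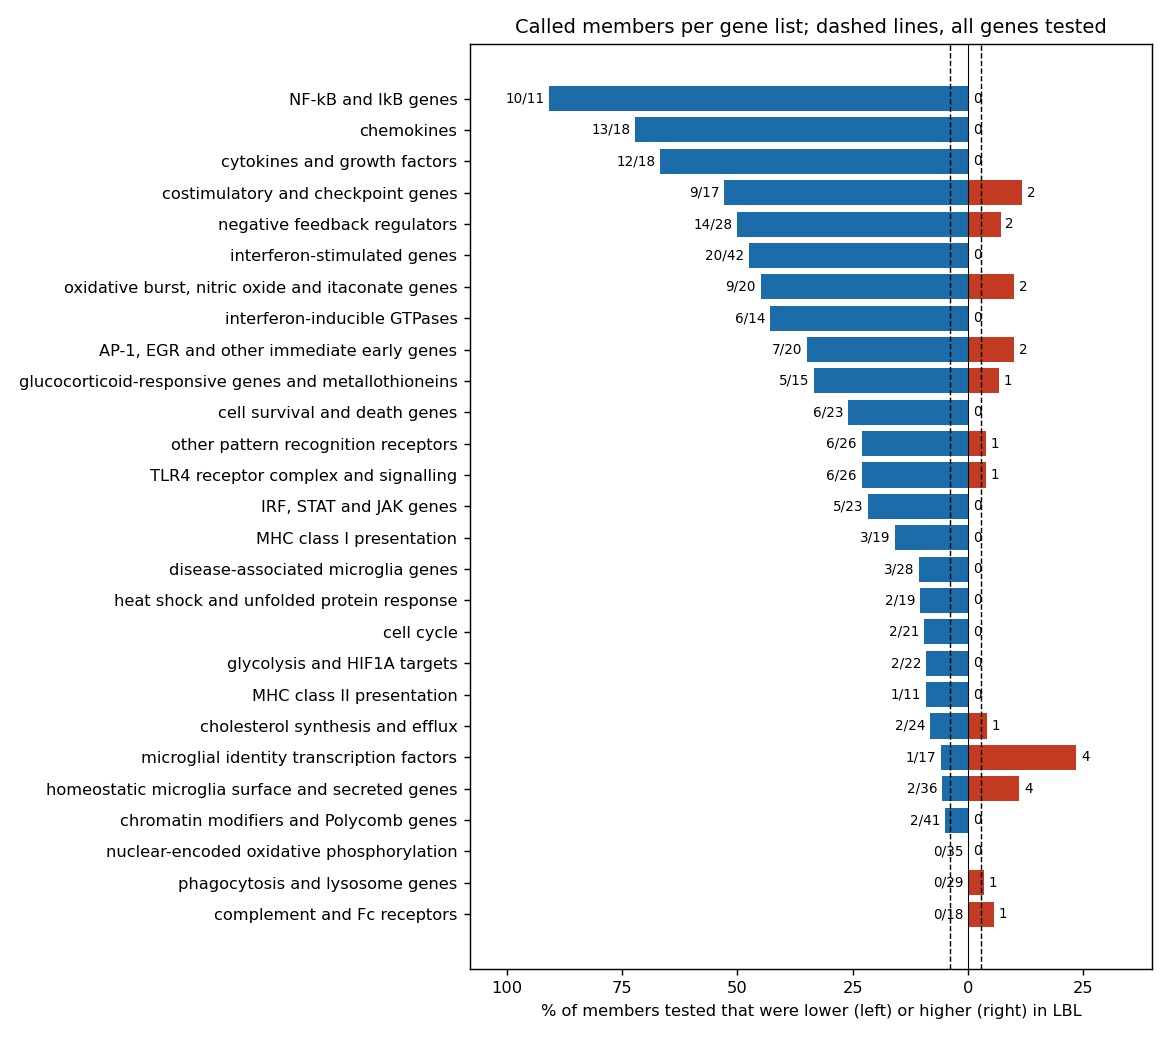
For 27 gene lists, the percentage of tested members lower in LBL is drawn to the left and higher to the right, with the numbers of members beside the bars; dashed lines mark all genes tested (4.0% and 2.74%). NF-kB family genes (10 of 11), chemokines (13 of 18) and cytokines (12 of 18) have the longest bars, and oxidative phosphorylation (0 of 35) has none.

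Effector genes of the oxidative and lipid mediator response were split. Of 20 tested, 9 were lower (45.0%, against 4.0% of all genes) and 2 higher (10.0%, against 2.74%). The median was -0.27. Acod1, which encodes the enzyme that makes itaconate, was at 18.1, 12.97, 19.9, 17.9 and 4.92 CPM in PBL and 1.58, 0.486, 3.88, 2.41 and 1.45 CPM in LBL, without overlap (log2 fold change -2.92, SE 0.52, edgeR adjusted p = 0.000348). It was at 0 in all PBP libraries, so LBL was at least 27.5-fold higher than PBP by the level of 3 counts over the group. Cybb, the gene of the NADPH oxidase subunit gp91phox, was at 51.8, 56.3, 51.0, 99.9 and 46.3 CPM in PBL, with PBL_4 high, and 20.0, 13.1, 22.3, 17.1 and 17.2 CPM in LBL (log2 fold change -1.77, SE 0.28, edgeR adjusted p = 7.93e-05). Sod2, the mitochondrial superoxide dismutase gene (-1.18, SE 0.15), the cystine transporter gene Slc7a11 (-2.83, SE 0.43) and Ptgs2, the gene of cyclooxygenase 2 (-2.01, SE 0.34), also fell. Hmox1, which encodes the haem-degrading enzyme HO-1, was higher (log2 fold change 0.47, SE 0.15, edgeR adjusted p = 0.0466), at 58.4, 50.4, 49.5, 55.4 and 49.5 CPM in LBL and 39.4, 43.5, 42.0, 34.3 and 30.7 CPM in PBL. Alox5, the gene of 5-lipoxygenase, was higher too (log2 fold change 0.61, SE 0.17, edgeR adjusted p = 0.0204). These calls were not firm: Hmox1 lost its call without any one of the 10 libraries except PBL_2, and Alox5 without PBL_3, PBL_4 or LBL_2.

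Of 35 nuclear-encoded oxidative phosphorylation genes, 0 were called by edgeR (median 0.02), with 2 lower and 2 higher at an unadjusted p under 0.05. DESeq2 called 1 lower and 1 higher, limma voom 0, and without PBL_1 edgeR called 2 higher. Of 22 glycolysis and HIF1A target genes, 2 were lower (9.1%, against 4.0% of all genes) and 0 higher. They were Pfkfb3, which encodes an activator of glycolysis (log2 fold change -0.78, SE 0.15, edgeR adjusted p = 0.000594), and Adm, the gene of adrenomedullin (log2 fold change -3.54, SE 0.91, edgeR adjusted p = 0.0152), which was under 4 CPM in all libraries. Ldha, the lactate dehydrogenase gene, was at 289 to 380.1 CPM in LBL and 274 to 401 CPM in PBL, not called (log2 fold change 0.03, SE 0.11, edgeR adjusted p = 0.926), and 109 to 161 CPM in PBP. Of 24 cholesterol genes, 2 were lower (8.3%) and 1 higher (4.2%), against 4.0% and 2.74% of all genes. Ch25h, which encodes cholesterol 25-hydroxylase, an enzyme induced by interferon, was at 295, 133, 229.5, 207 and 120.4 CPM in PBL and 36.6, 19.9, 42.7, 38.3 and 52.8 CPM in LBL, clearly apart (log2 fold change -2.38, SE 0.38, edgeR adjusted p = 0.000148). Mylip, a ubiquitin ligase gene, rose (log2 fold change 0.46, SE 0.12, edgeR adjusted p = 0.0112), with PBP at 189 to 300.4 CPM above both groups (117 to 144 CPM in LBL, 84.6 to 103 CPM in PBL). The call of Mylip was lost with the RNA quality number in the fit (edgeR adjusted p = 0.0786).

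Immediate early genes differed among themselves. Of 20 tested, 7 were lower (35.0%, against 4.0% of all genes) and 2 higher (10.0%, against 2.74%). The median was -0.75. Gadd45b, a stress gene induced by NF-kB, was at 22.04, 21.0, 44.2, 42.5 and 41.4 CPM in PBL and 1.58, 1.26, 4.81, 1.61 and 0.289 CPM in LBL (log2 fold change -4.19, SE 0.53, edgeR adjusted p = 2.36e-06). Maff (-2.60, SE 0.58) and Jund (-1.21, SE 0.20), both of leucine zipper transcription factors, fell with it. Fos was at 60.4, 14.1, 18.3, 9.54 and 38.3 CPM in LBL and 54.6, 104, 79.9, 73.1 and 106 CPM in PBL, and Egr1 at 315, 47.2, 88.7, 36.5 and 109.8 CPM in LBL and 285, 592, 285, 553 and 713 CPM in PBL. LBL_1 was the highest LBL library for both and reached into the range of PBL, and neither gene was called (edgeR adjusted p = 0.394 for Fos and 0.197 for Egr1). Limma voom called both, at adjusted p = 0.0193 and 0.00725. Klf6 rose (log2 fold change 0.40, SE 0.09, edgeR adjusted p = 0.00637), and so did Myc (log2 fold change 0.85, SE 0.22, edgeR adjusted p = 0.0189), a growth regulator, at 347, 501, 514, 503 and 399.9 CPM in LBL and 415, 271, 203, 187 and 184 CPM in PBL, where PBL_1 lay within the LBL range. The call of Myc was lost without PBL_3, PBL_4, PBL_5, LBL_2 or LBL_4, and with the RNA quality number in the fit (edgeR adjusted p = 0.106). The count of 7 falls was 4 without LBL_2 or LBL_4.

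Glucocorticoid-responsive genes and metallothioneins did not move as one. Of 15 tested, 5 were lower (33.3%, against 4.0% of all genes) and 1, Tsc22d3, was higher (6.7%, against 2.74%). The median was -0.35. Fkbp5, a standard readout of the glucocorticoid receptor, was at 569, 572, 535, 635 and 684 CPM in LBL and 472, 565, 558, 561 and 597 CPM in PBL, overlapping and not called (log2 fold change 0.12, SE 0.13, edgeR adjusted p = 0.676). Both groups were well above the 89.4 to 116 CPM of PBP. The metallothionein genes Mt2 (-2.15, SE 0.24) and Mt1 (-0.90, SE 0.14) fell. Of 23 cell survival and death genes, 6 were lower (26.1%, against 4.0% of all genes) and 0 higher (median -0.21). Among the 6 were Birc3 (log2 fold change -1.48, SE 0.17, edgeR adjusted p = 5.59e-07), Fas (-2.50, SE 0.43) and Cflar (-0.61, SE 0.10). Birc3 and Cflar encode inhibitors of cell death and Fas a death receptor. Of 21 cell cycle genes, the inhibitor gene Cdkn1a (log2 fold change -1.16, SE 0.16, edgeR adjusted p = 4.1e-06) and the cyclin gene Ccnd2 (log2 fold change -1.32, SE 0.37, edgeR adjusted p = 0.0237) were lower (9.5%, against 4.0% of all genes) and 0 higher. Ccnd2 lost its call without PBL_2, PBL_4, LBL_3, LBL_4 or LBL_5.

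Of 41 chromatin modifier and Polycomb genes, 2 were lower, 4.9% against the 4.0% of all genes, and 0 higher, with a median of 0.01. Kdm6b (ENSMUSG00000018476, chromosome 11), which encodes the demethylase JMJD3 that removes the repressive mark H3K27me3, was at 517, 677, 649, 769.5 and 829 CPM in PBL and 308, 187, 250.3, 229 and 275 CPM in LBL. The groups were far apart (log2 fold change -1.46, SE 0.15, edgeR adjusted p = 8.83e-08), and both were well above PBP, at 11.3 to 16.5 CPM. Tet2, the gene of a DNA demethylation enzyme, fell slightly (log2 fold change -0.39, SE 0.12, edgeR adjusted p = 0.0358) and lost this call without PBL_2, PBL_3, PBL_4, PBL_5, LBL_2 or LBL_3. Of 19 heat shock and unfolded protein genes, Herpud1 (log2 fold change -0.91, SE 0.14, edgeR adjusted p = 1.65e-05) and Hsp90aa1 (log2 fold change -0.54, SE 0.15, edgeR adjusted p = 0.0187) were lower (10.5%, against 4.0% of all genes) and 0 higher. Hsp90aa1 lost its call without PBL_3, PBL_4 or LBL_2.

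Several genes of microglial identity were higher in LBL, while the best-known surface markers were not called. P2ry12, the purinergic receptor gene that marks resting microglia (ENSMUSG00000036353, chromosome 3), was at 4561, 4906, 4744, 4723 and 5203 CPM in LBL and 4979, 4206, 3905, 3270.0 and 4484 CPM in PBL, overlapping (log2 fold change 0.21, SE 0.11, edgeR adjusted p = 0.278). Tmem119, Cx3cr1, Csf1r and Sall1 were not called either, with log2 fold changes of 0.07, 0.19, 0.20 and 0.43. Sall1, a transcription factor gene required for microglial identity, was at 81.5 to 112 CPM in LBL and 41.9 to 97.8 CPM in PBL, both far below PBP at 376 to 464 CPM, and without PBL_5 its edgeR adjusted p was 0.0253. Of 36 homeostatic surface and secreted genes, 2 were lower (5.6%) and 4 higher (11.1%, against 2.74% of all genes; median 0.11). Gpr84, a receptor gene for medium-chain fatty acids that inflammation induces, was at 3681, 2493, 2977, 3271 and 2965 CPM in PBL and 828, 682, 1028, 828 and 1132 CPM in LBL, wide apart (log2 fold change -1.77, SE 0.19, edgeR adjusted p = 2.86e-07). The adenosine receptor gene Adora3 also fell (log2 fold change -0.65, SE 0.10, edgeR adjusted p = 4.32e-05). Those that rose were P2ry13 (log2 fold change 0.46, SE 0.11, edgeR adjusted p = 0.00784), Abi3 (log2 fold change 0.52, SE 0.14, edgeR adjusted p = 0.022), Lpar5 (log2 fold change 1.30, SE 0.34, edgeR adjusted p = 0.0169) and Golm1 (log2 fold change 0.34, SE 0.10, edgeR adjusted p = 0.0304). With library totals alone as the scaling 8 of the 36 rose, with the RNA quality number in the fit 0 rose, and the count was 2 without PBL_3, PBL_4 or LBL_1 and 1 without LBL_2.

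Of 17 identity transcription factor genes, 4 were higher (23.5%, against 2.74% of all genes) and 1 lower (median 0.14). Maf (log2 fold change 0.36, SE 0.11, edgeR adjusted p = 0.0394), Bhlhe41 (log2 fold change 0.55, SE 0.14, edgeR adjusted p = 0.0102) and Hhex (log2 fold change 0.89, SE 0.23, edgeR adjusted p = 0.014) rose with overlapping libraries. Tgif1, the gene of a corepressor of TGF-beta signalling, fell (log2 fold change -0.66, SE 0.15, edgeR adjusted p = 0.00525). Without LBL_4 the count of rises was 1. With the RNA quality number in the fit, Bhlhe41 (edgeR adjusted p = 0.0524) and Hhex (edgeR adjusted p = 0.0666) lost their calls. Hhex also lost its call with the LBL and PBL libraries alone in the fit (edgeR adjusted p = 0.0668). Of 28 genes linked to disease-associated microglia, 3 were lower (10.7%, against 4.0% of all genes) and 0 higher (median -0.17). They were Ch25h, Cybb and Timp2 (log2 fold change -0.42, SE 0.12, edgeR adjusted p = 0.0331). Apoe was at 997 ± 179 CPM in LBL and 1007 ± 130.1 CPM in PBL (SD, n = 5), and it and Spp1 (0.63, SE 0.37) and Clec7a (0.33, SE 0.23) were not called. Spp1, which encodes osteopontin, was at 172 to 352 CPM in LBL, 87.4 to 236 CPM in PBL and 5.75 to 40.4 CPM in PBP. Of 18 complement and Fc receptor genes, only Fcgr2b, the inhibitory Fc receptor gene, was called (log2 fold change 0.36, SE 0.10, edgeR adjusted p = 0.018), and of 29 phagocytosis and lysosome genes only Ctsc (log2 fold change 0.46, SE 0.12, edgeR adjusted p = 0.0133). Both rose, which made 5.6% and 3.4% of the tested members of these lists, against 2.74% of all genes. Fcgr2b lost its call without PBL_4, PBL_5 or LBL_4, and Ctsc without PBL_4 or LBL_4. Both also lost it with the RNA quality number in the fit (edgeR adjusted p = 0.0863 and 0.0929). Timp2 lost its call without any one of PBL_4, PBL_5 or LBL_1 to LBL_4. C3 was at 0 to 1.88 CPM in LBL and 0.178 to 6.46 CPM in PBL and was not called (log2 fold change -1.72, SE 0.75, edgeR adjusted p = 0.183).

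Among genes with at least 5 CPM in LBL and no overlap, the largest rises were modest in size, and their functions were mixed. The 7 genes that rose by at least 4-fold did not meet these limits. The 12 genes with the largest called rise, at least 5 CPM in LBL and no overlap had log2 fold changes of 1.29 to 1.50. Zbtb14, a zinc finger repressor gene (ENSMUSG00000049672, chromosome 17), was at 17.7, 16.5, 15.7, 15.3 and 10.6 CPM in LBL and 10.0, 3.20, 4.25, 5.43 and 5.46 CPM in PBL. PBL_1 came close to the lowest LBL library without reaching it (log2 fold change 1.42, SE 0.24, edgeR adjusted p = 0.000125), and PBP was higher still at 19.7 to 33.0 CPM. Kcnj2, which encodes the inward rectifier potassium channel Kir2.1, was at 8.52, 7.10, 11.3, 9.99 and 7.23 CPM in LBL and 5.91, 1.78, 4.93, 4.04 and 1.50 CPM in PBL, apart (log2 fold change 1.29, SE 0.27, edgeR adjusted p = 0.00199), below 13.8 to 23.6 CPM in PBP. Rsrp1, an arginine- and serine-rich protein gene, was at 448, 474, 522, 576 and 374 CPM in LBL and 233, 134, 238, 134 and 132 CPM in PBL (log2 fold change 1.46, SE 0.36, edgeR adjusted p = 0.0128). Hspb3, a small heat shock protein gene (log2 fold change 1.33, SE 0.25, edgeR adjusted p = 0.000666), 4833422C13Rik (log2 fold change 1.29, SE 0.33, edgeR adjusted p = 0.013) and Gm43372 (log2 fold change 1.29, SE 0.31, edgeR adjusted p = 0.00826) also held their calls without any single library. Gm43372 was the exception in level: LBL, at 5.90 to 9.40 CPM, lay above both PBL (2.64 to 3.73 CPM) and PBP (1.84 to 4.70 CPM). The other 6 rested on fewer libraries or settings. Tnfsf8, the gene of CD30 ligand (log2 fold change 1.50, SE 0.41, edgeR adjusted p = 0.0201), lost its call without PBL_2, PBL_3 or LBL_2. Lpar5 lost its call without PBL_3 or LBL_2, Mtx3 (log2 fold change 1.45, SE 0.37, edgeR adjusted p = 0.0124) without LBL_4, and Zfp874a (log2 fold change 1.42, SE 0.36, edgeR adjusted p = 0.0113) without LBL_1. Klhl38 (log2 fold change 1.35, SE 0.41, edgeR adjusted p = 0.0423) lost its call without PBL_1, PBL_3, PBL_4, LBL_1, LBL_2 or LBL_5. Pigw (log2 fold change 1.30, SE 0.33, edgeR adjusted p = 0.0132) lost its call with the RNA quality number in the fit (edgeR adjusted p = 0.0639). So did Tnfsf8, Lpar5 and Zfp874a (edgeR adjusted p = 0.0517, 0.0856 and 0.0599).

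**Figure D4:**
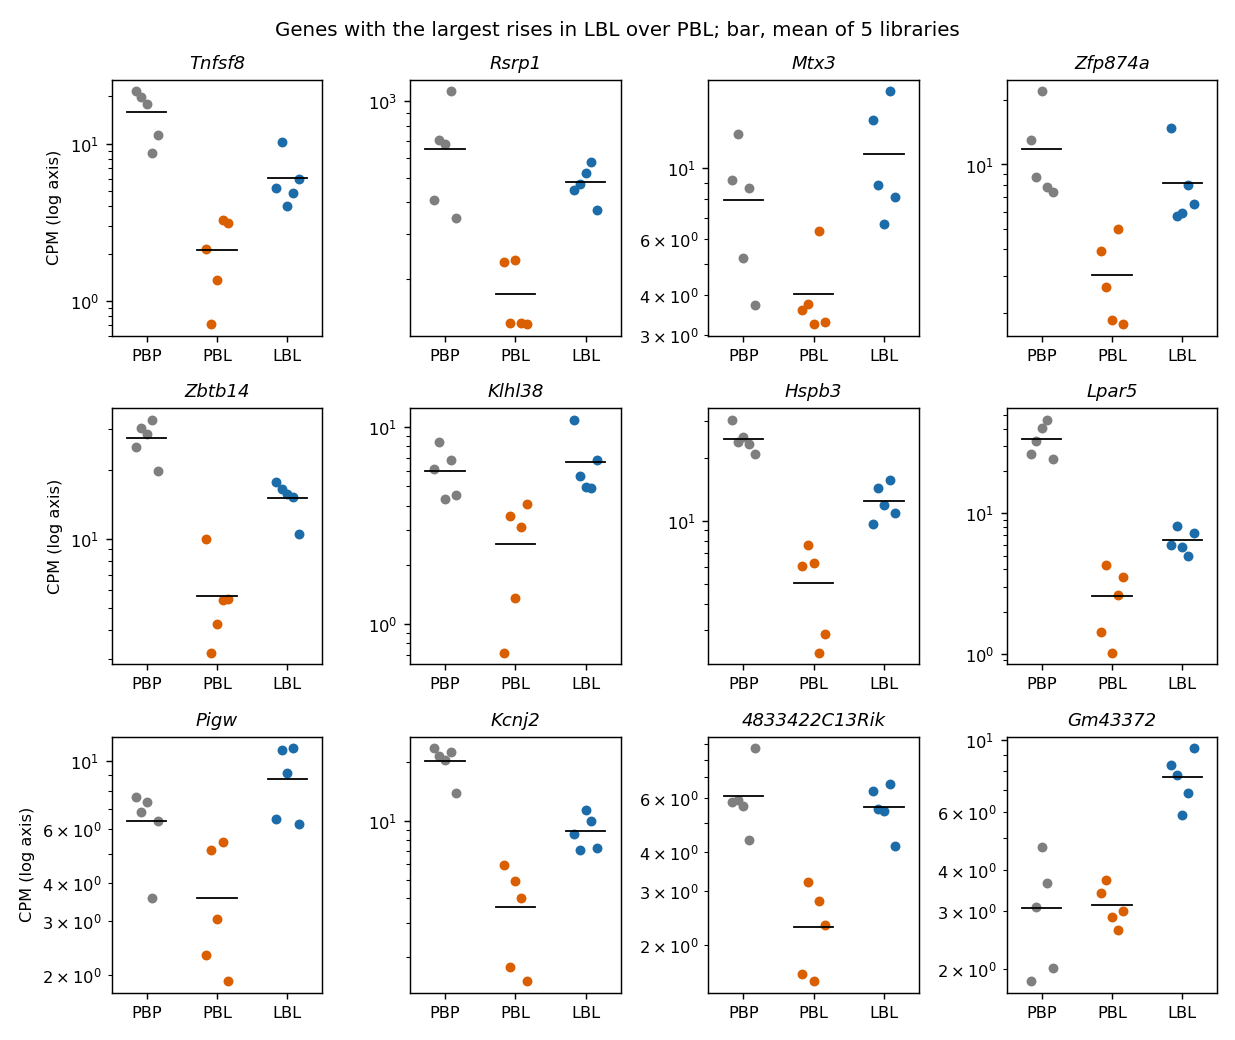
CPM of the 12 genes with the largest rises among called genes with at least 5 CPM in LBL and no overlap. Each library of PBP, PBL and LBL is shown (5 points a group, log axes, the bar is the mean). In 11 panels the PBP mean lies above the PBL mean and, except for Mtx3 and Pigw, near or above the LBL mean, while Gm43372 is highest in LBL, at 5.90 to 9.40 CPM.

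The deepest falls were of neutrophil genes. Of the 12 genes with the deepest called fall, at least 5 CPM in PBL and no overlap, 3 were chemokine genes and the other 9 were Camp, Chil3, Ltf, S100a9, Ngp, Cd177, S100a8, Hp and Anxa1, most of which are known from neutrophil granules or the myelocytes that make them. S100a8, a subunit of calprotectin (ENSMUSG00000056054, chromosome 3), was at 91.9, 28.6, 54.1, 119 and 99.6 CPM in PBL and 2.05, 0, 0.931, 0.345 and 0 CPM in LBL. Every PBL library held it and 2 LBL libraries held none (log2 fold change -7.02, SE 1.09, edgeR adjusted p = 0.000147). Ngp, a granule protein gene, was at 129, 49.4, 86.0, 156 and 196 CPM in PBL and 0.789, 0, 0.621, 0 and 0.434 CPM in LBL (log2 fold change -8.54, SE 1.35, edgeR adjusted p = 0.000202). Camp, the cathelicidin gene, was at 45.0, 14.9, 39.4, 75.6 and 78.4 CPM in PBL and at 0 in all LBL libraries, so PBL was at least 654-fold higher by the level of 3 counts over the LBL group. By the same measure PBL was at least 384-fold higher in Chil3, a gene of neutrophil precursors and monocytes, and 77.1-fold in Cd177, a neutrophil surface gene. Ltf was at 9.95 to 37.4 CPM in PBL and S100a9 at 15.6 to 66.4 CPM, against at most 0.158 and 0.310 CPM in LBL. All 7 tested neutrophil markers were lower in LBL. The 3 others, Ly6g, Mmp8 and Mmp9, had too few counts. In bulk libraries, fewer cells of a type and less RNA per cell cannot be told apart.

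Within PBL the neutrophil level varied. The mean log2 CPM of the 7 markers was 4.93, 3.62, 4.58, 5.46 and 4.98 in PBL_1 to PBL_5. PBL_2, the lowest, was the lowest PBL library for 192 of the 658 other genes that fell, PBL_1 for 209, PBL_3 for 82, PBL_4 for 37 and PBL_5 for 138. Among the genes that fell, PBL_2 was lowest for 7 of 12 cytokine genes, 5 of 13 chemokine genes, 5 of 10 NF-kB family genes, 8 of 14 negative feedback genes and 3 of 20 interferon-stimulated genes. PBL_5 was lowest for 6 of the chemokine genes and 15 of the interferon-stimulated genes. PBL_1 was lowest for 5 of the NF-kB family genes, 4 of the negative feedback genes, 1 cytokine gene, 1 chemokine gene and 0 interferon-stimulated genes. The lowest library was not counted over all genes tested, and a link to the neutrophil level was not tested. In PBP the same score was -1.95 to -1.80 in the 4 libraries sorted on the Astrios and -0.30 in PBP_5, which was sorted on day 3 with PBL. The LBL libraries, sorted on days 1 and 2, had scores of -1.68 to -0.44. In the mice without depletion, S100a8 was at 0 to 6.23 CPM in LL and 0 to 6.04 CPM in PL, and 0 of the 7 markers were called between LL and PL by edgeR, with 0 at an unadjusted p under 0.05. Of the 6 tested monocyte markers, Chil3 and Plac8 were lower in LBL, though Plac8 was not without PBL_1. The summed level of the 6 was 17.4 to 27.8 CPM in LBL and 34.1 to 76.2 CPM in PBL. Chil3 alone had a mean of 29.8 CPM in PBL and was at 0 in LBL. The other monocyte markers overlapped between the groups, with Ccr2 at 22 to 61 counts in LBL and 6 to 28 in PBL. Markers of border-associated macrophages (8 tested), lymphocytes (2), astrocytes (10), neurons (10), endothelial cells (6) and red blood cells (5) gave 0 calls in edgeR, DESeq2 and limma voom. At an unadjusted p under 0.05 edgeR gave 2, 0, 1, 0, 0 and 0 of them lower and 0, 1, 0, 0, 1 and 0 higher, in that order. In contrast, 1 of 8 oligodendrocyte markers, Cnp, was higher (log2 fold change 0.37, SE 0.12, edgeR adjusted p = 0.0497), a call lost in most settings. Neuron markers summed to 88.7 to 228 CPM in LBL and 122 to 243 CPM in PBL, and astrocyte markers to 681 to 779 CPM and 704 to 935 CPM.

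**Figure D5:**
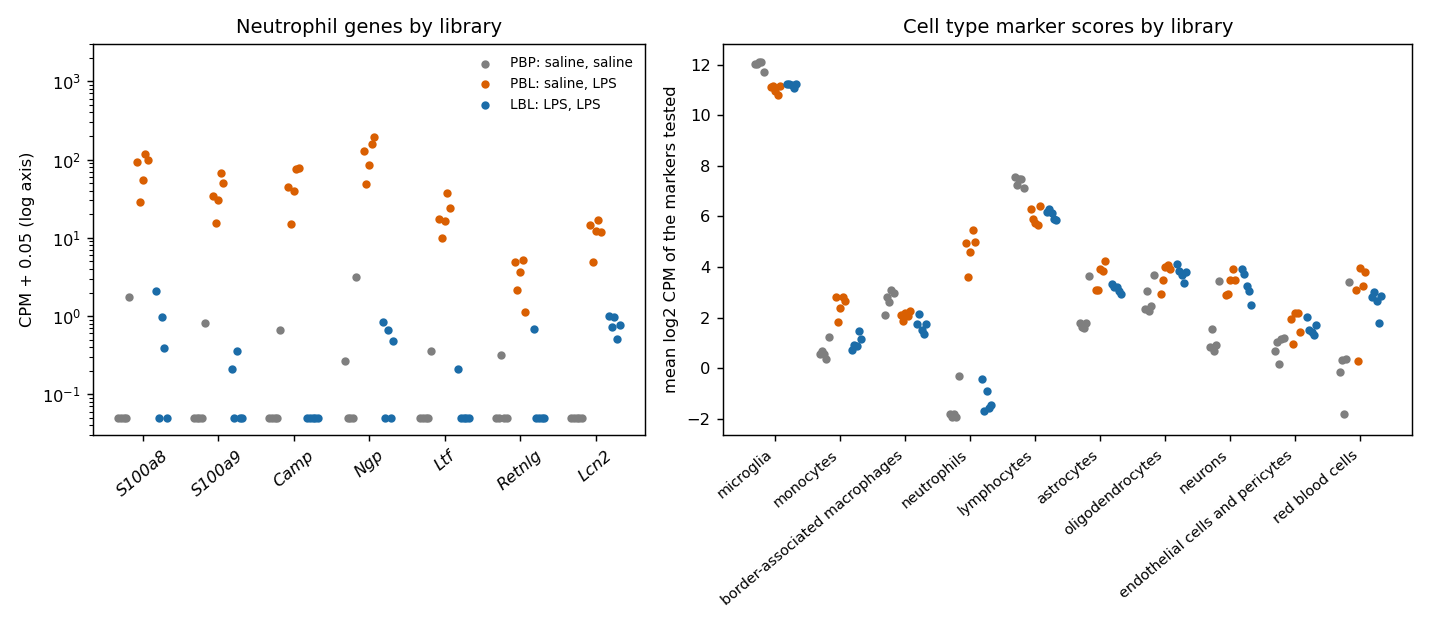
Left, CPM + 0.05 of 7 neutrophil genes in each library (log axis; the lowest row is 0 counts); right, the mean log2 CPM of the tested markers of 10 cell types in each library. Neutrophil genes are high in all 5 PBL libraries and near 0 in LBL and PBP, while microglial scores of LBL and PBL overlap.

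LBL microglia still differed widely from repopulated microglia that never met LPS. Against PBP, 2423 genes were higher in LBL (14.6%) and 2261 lower (13.6%). This comparison shares the LBL libraries with the one above, and 4 of the 5 PBP libraries came from the Astrios sorter. With the sorter in the fit 945 were higher and 664 lower. PBP was the only group from both sorters, so that sorter term rests on PBP_5 against PBP_1 to PBP_4. It cannot tell the sorter from that 1 library or its sorting day. PBP_5, the library from the other sorter, stood apart from the other PBP libraries, and without it 3334 were higher and 2671 lower. Markers of other brain cells moved with this comparison: 4 of 10 neuron markers, 4 of 10 astrocyte markers and 3 of 8 oligodendrocyte markers were higher in LBL, and 1 oligodendrocyte marker was lower. The mean log2 CPM of the neuron markers was 2.49 to 3.94 in LBL, 0.68 to 1.55 in PBP_1 to PBP_4 and 3.43 in PBP_5. That of the astrocyte markers was 2.92 to 3.33, 1.60 to 1.80 and 3.65, in the same order, and that of the oligodendrocyte markers 3.38 to 4.11, 2.27 to 3.04 and 3.69. Their part in the result was not tested. Of the genes described above, Il1b (log2 fold change 4.08, SE 0.49, edgeR adjusted p = 4.47e-07), Tnf (log2 fold change 2.95, SE 0.42, edgeR adjusted p = 6.06e-06), Cxcl10 (log2 fold change 3.44, SE 0.66, edgeR adjusted p = 0.000322) and Ccl2 (log2 fold change 3.06, SE 0.42, edgeR adjusted p = 4.08e-06) were higher in LBL than in PBP. Socs3 (6.09, SE 0.22), Bcl3 (5.75, SE 0.23), Kdm6b (4.18, SE 0.17) and Nfkbia (2.46, SE 0.11) were higher as well. Of the 18 cytokine genes 10 were higher and 3 lower, of the 18 chemokine genes 9 higher and 0 lower, and of the 42 interferon-stimulated genes 12 higher and 4 lower. Other genes that had fallen against PBL did not differ from PBP by this test: Tnfaip3 (log2 fold change -0.17, SE 0.33, edgeR adjusted p = 0.744), Isg15 (log2 fold change 0.29, SE 0.22, edgeR adjusted p = 0.331), Cxcl9 (log2 fold change 0.35, SE 0.71, edgeR adjusted p = 0.747), Cybb (log2 fold change 0.31, SE 0.29, edgeR adjusted p = 0.453) and Rel (log2 fold change -0.02, SE 0.14, edgeR adjusted p = 0.929). Of the 36 homeostatic genes, 21 were lower in LBL than in PBP and 3 higher. P2ry12 (-1.07, SE 0.11) and the identity gene Sall1 (-2.22, SE 0.17) were lower. These counts of list members were not made with the sorter in the fit.

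The size of the earlier LPS effect was also set beside that in mice without depletion, LL against PL, which shares no library with LBL against PBL. A test of the difference between both effects called 4 genes of 16632 (0.0241%), with 2417 at an unadjusted p under 0.05. Max, the gene of the partner of MYC, was at 44.0, 46.0, 44.4, 48.5 and 42.1 CPM in LBL and 22.2, 30.7, 27.5, 20.9 and 29.9 CPM in PBL, apart. Its log2 fold change was 0.78 there and -0.19 in LL over PL, and the difference was 0.97 (SE 0.19, edgeR adjusted p = 0.0495). Tnfrsf11a, which encodes the receptor RANK, was at 46.9 to 54.2 CPM in LBL and 22.4 to 32.1 CPM in PBL. Its log2 fold changes were 0.83 and -0.07, and the difference was 0.90 (SE 0.17, edgeR adjusted p = 0.0495). Atp1b2, a sodium pump subunit gene, had log2 fold changes of -0.41 and 3.83. Serpinb1a, the gene of an inhibitor of neutrophil proteases, was at 0 to 0.621 CPM in LBL, 1.24 to 5.12 CPM in PBL, 0.0766 to 0.830 CPM in LL and 0 in all PL libraries. Their differences were -4.25 and -8.32, both at an edgeR adjusted p of 0.0495, and the second rests on a group at 0 and is no measured size. These 4 calls were fragile. Leaving out any 1 LBL library, PBL_3, PBL_4, PL_1, PL_2, PL_4, LL_3, LL_4 or LL_5 gave 0 in both directions. Without PBL_1 or PBL_5 there was 1 lower, without LL_2 there were 4 lower and 1 higher, and without LL_1 there was 1 higher. Without PL_3, which had an RNA quality number of 6.5 and 0.59 ng/µl of RNA, the count was 12 lower and 11 higher. DESeq2 gave 17 and 14 and limma voom 0, and 0 remained with the sorter in the fit. That sorter term rests on PBP_5 against the other PBP libraries and cannot separate the sorter from LL against PL.

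Among the genes that fell in LBL, all 12 cytokine genes, all 13 chemokine genes, all 10 NF-kB family genes and all 20 interferon-stimulated genes also had a negative fold change in LL over PL, as did 13 of the 14 negative feedback genes. Over all genes tested, 48.6% had a negative and 51.4% a positive fold change there. Cxcl10 was -4.82 with depletion and -4.35 without (difference -0.47, SE 0.72), Il1b -2.93 and -2.23 (difference -0.70, SE 0.53), and Tnfaip3 -3.14 and -3.11 (difference -0.03, SE 0.48). Kdm6b was -1.46 and -0.91 (difference log2 fold change -0.55, SE 0.21, edgeR adjusted p = 0.244). None of these differences was called, which does not show that they were equal. Of the 665 genes lower in LBL, 578 had a negative fold change in LL over PL, and 242 were also called lower there, 36.4% of the 665 and 71.6% of the 338 called in LL, which are 2.03% of all genes. Of the 456 higher genes, 304 had a positive fold change there and 11 were also called, 2.4% of the 456 and 8.8% of the 125 called in LL (0.752% of all genes). Across all 16632 genes, which are not independent replicates, the 2 sets of fold changes had a Pearson r of 0.189. LL and PL were sorted on different instruments, whereas LBL and PBL were not.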

How the data were processed

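Per the submitters' processing notes, the tools were HTSeq 0.11.0, TopHat, cutadapt 2.10, FastQC 0.11.9, Picard 2.13.2 and SAMtools 1.10, with GRCm39. Neither annotation nor strand setting was found in the sources, so overlapping genes and near-identical copies are uncertain. The authors deposited raw counts for 36982 genes, of which 4744 had no counts. The RNA quality number is a score the authors deposited per library. Counts of 29 libraries were fitted in edgeR 4.0.16 (R 4.3.3; TMM scaling, filterByExpr, robust quasi-likelihood, 1 coefficient per group, 23 residual degrees of freedom), leaving 16632 genes. A gene is called at a Benjamini-Hochberg adjusted p under 0.05, and the SE is the log2 fold change over the root of F. DESeq2 1.42.0, limma 3.58.1 (voom), other scalings and filters, the RNA quality number, sorting days, a replicate block and leaving out each library were alternatives. On simulated counts for LBL against PBL over 16632 genes, 54 of 100 genes changed 2-fold were called in the right direction, and 75 of 100 at a log2 fold change of 2. Replicate pairs differed by more than counting noise (chi-square per degree of freedom 6.8 to 17.18 over 20 pairs), so each library counts once. Same-numbered LBL and PBL libraries did not deviate together (r of -0.07 to 0.07).

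The genes named are a panel of 42, the 12 deepest falls and 12 largest rises within the limits given with them, and the 3 members per list with the smallest adjusted p in each direction and those against the list's direction. The comparison, the panel and the lists were chosen with earlier results of these data known, and other members are named beside their counts after their values were seen. Some genes counted in the lists are not reported by name here.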

Additional observations from a re-analysis of the deposited data

Results flagged for a closer look

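Of 258 groups of 5 libraries tested for a single library far from the others, 17 stood out, and chance flags about 1 in 20 groups. In LBL, LBL_1 was the one set apart in 8 genes. It was highest for Cxcl1 (0.631 CPM, others 0 to 0.155), Egr1 (315 CPM, others 36.5 to 109.8), Irf1 (131 CPM, others 75.8 to 87.1), Tgif1 (56.8 CPM, others 39.8 to 44.4) and Zfp874a (14.8 CPM, others 5.74 to 8.04), and for Ltf (0.158 CPM) and Retnlg (0.631 CPM), which the other LBL libraries lacked. LBL_1 was lowest for P2ry13 (2352 CPM, others 2643 to 2681). LBL_2 alone held Hp (0.486 CPM) and LBL_3 alone Cxcl11 (0.621 CPM). For Ltf and Retnlg, LBL_1 held 1 and 4 counts. With the other LBL libraries at 0, as in Ltf, Retnlg, Hp and Cxcl11, very few counts set a library apart. LBL_4 was lowest for Csf1r (4015 CPM, others 5315 to 5722), and LBL_5 was highest for Nfkb1 (342 CPM, others 265 to 284).

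In PBL, PBL_2 was lowest for Tnf (110.1 CPM, others 161 to 175) and Nfkbie (78.0 CPM, others 97.6 to 104). PBL_4 was highest for Cybb (99.9 CPM, others 46.3 to 56.3) and Mtx3 (6.36 CPM, others 3.23 to 3.73), and PBL_1 for Pycard (333.5 CPM, others 266 to 270). PBL_2 also held the lowest neutrophil marker level of its group, and its part in these values was not tested.

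The test of the difference itself called 4 genes for an effect of the earlier LPS that differed between depleted and undepleted mice. It called 0 with limma voom, with the sorter in the fit or without any 1 LBL library. The sorter term of that fit rests on PBP_5 against the other PBP libraries. The differences in log2 fold change were -4.25 for Atp1b2, 0.97 for Max, -8.32 for Serpinb1a and 0.90 for Tnfrsf11a. Atp1b2 was at 17.4 CPM in LL and 1.22 CPM in PL, and Serpinb1a was at 0 in every PL library. LL and PL came from different sorters, so the sorter and that contrast cannot be told apart.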

How the results depend on the processing

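Against 665 genes lower and 456 higher in LBL, scaling by library totals gave 520 and 967, the RNA quality number as covariate 442 and 196, and LBL_5 as the only LBL library, assumed to vary like the other groups, 11 and 4. Asking also for a change of at least 2-fold left 282 and 71. Other settings gave 553 to 856 lower and 375 to 576 higher. Leaving out 1 library gave 416 to 729 lower and 232 to 553 higher. The replicate block with the LBL and PBL libraries alone gave 852 and 476. The labels do not say whether the numbers pair these samples. Same-numbered libraries did not deviate together, and 1 of 5 LBL libraries correlated best with its own number, which does not settle it. For LBL against PBP (2261 lower, 2423 higher), the sorter in the fit gave 664 and 945, and leaving out 1 library gave 1893 to 2671 and 1896 to 3334. For the difference between both effects (2 lower, 2 higher), DESeq2 gave 17 and 14, limma voom 0 and 0, the sorter in the fit 0 and 0, and leaving out 1 library 0 to 12 and 0 to 11. In both comparisons the sorter term rests on PBP_5 against the other PBP libraries, since no other group came from both sorters.

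Of 107 named genes called, 75 lost the call only with LBL_5 as the only LBL library, 27 in another setting too, and 5 in no setting run. The RNA quality number in the fit took the call from 21 named genes, among them Mylip, Ctsc, Fcgr2b, Myc, Adm, Tnfsf8, Lpar5 and Zfp874a. Of 1628 counts of list members under alternatives, 1404 stayed within 1.5 times and 224 did not. Without 1 library, Apoe ranged from -0.13 to 0.07 and Ldha from -0.02 to 0.12. Sign changes occurred only in genes never called in the comparison: Myd88 (0.02 with library totals, 0.00 without PBL_1), Apoe (0.06 with library totals, 0.00 at a minimum of 1 CPM, 0.00 with the day 1 libraries alone, and without PBL_3, LBL_2, LBL_3 or LBL_5 0.07, 0.02, 0.05 and 0.00) and Ldha (-0.07 with the RNA quality number, -0.15 with LBL_5 as the only LBL library, -0.02 without PBL_5 and -0.02 without LBL_3). The cause of these shifts was not tested. Depth limits genes near 3 counts over a group, which is 0.0775 CPM in LBL and 0.0972 CPM in PBL. Sorting day cannot be told apart from the earlier LPS in any setting.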
